A study of Mus musculus with 18 samples.

Results

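Agt, Agtrap and Sgk1, 3 regulators of angiotensin action and sodium handling, were followed across all arrays of the study. A gene was taken as every probe whose single annotated symbol is its name. The rule found 3 probes, 1 for each gene, among 16128 probes and 7117 singly named genes on a two-colour cDNA array. All 3 passed the filter on missing values, which kept the 6518 probes (40.4%) that had at least 15 array values of a possible 18 and at least 1 in each group. These were tested together. The genes were selected on their measured ratio in normoxia, so mean ratios from the normoxia arrays, differences from them and correlations that include them are given as descriptions with no test.

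The arrays measured kidneys of outbred CD1 mice placed in their condition at postnatal day 2 (P2) and kept there for 1, 2 or 4 weeks. The 3 conditions were normoxia (normal atmospheric conditions), constant hypoxia (oxygen held at 11%) and intermittent hypoxia (oxygen switched between 21% and 11% every 4 min). Crossing condition with duration gave 9 groups, each with a pair of arrays called A and B. On every array, Cy5-labelled cDNA from 1 male was hybridised together with Cy3-labelled cDNA from 1 female of the same condition, and no array had the dyes exchanged. A value is therefore a log2 ratio of the channels of the 2 sexes, not a level: it says nothing of how much of the RNA a kidney held, and a change common to both animals of an array leaves it where it was. The numerator channel is not stated, so a sign is read only as the sign of the deposited ratio, and sex and dye cannot be told apart. All arrays are labelled in the same orientation, but Eif2s3y, a Y-linked gene, did not keep 1 sign: its ratio was positive on 11 arrays and negative on 7, from -2.16 to 1.63. Of the probes for Xist, which is expressed from the inactive X of females, neither passed the filter, and they ran from -0.41 to 0.31 and from -2.70 to -0.07. Of the other tested genes listed as sex markers, Kdm5c was negative on all 18 arrays, from -0.71 to -0.01. Kdm6a and Ddx3x each took both signs. The labelled orientation of the channels is not borne out by Eif2s3y, and the markers did not all behave alike. Every mean over arrays below rests on the labels for that orientation. Grouping followed the array titles. For 2 arrays a second label gave a different duration: 1 week for the female animal on intermittent hypoxia 2 weeks A, and 2 weeks in a protocol of constant hypoxia 4 weeks A.

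In the renin-angiotensin system, the protease renin cuts angiotensinogen, the product of Agt, and angiotensin-converting enzyme then makes angiotensin II, which constricts vessels and makes the kidney hold sodium through its type 1 receptor. Agtrap encodes a membrane protein that binds the tail of that receptor and promotes its internalisation. Sgk1 encodes a kinase induced by aldosterone and glucocorticoids, which keeps the epithelial sodium channel at the surface of collecting duct cells by acting on the ubiquitin ligase Nedd4-2; angiotensin II drives aldosterone release, which joins the 3 genes in 1 chain of sodium control.

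In the RefSeq tables (GRCm38.p6), Agt lies at chr8:124556587-124569706, Agtrap at chr4:148077061-148088064 and Sgk1 at chr10:21882184-21999903. Both Agt and Agtrap have 1 annotated start, on the minus strand, and Sgk1 has 6 on the plus strand. The 250 bases before the start are shown because signals of low oxygen, of steroids and of the core promoter can act there. They were searched on both strands. The core of a hypoxia response element was sought as ACGTG. A half-site of the glucocorticoid and mineralocorticoid receptors was sought as AGAACA. The TATA box was sought as the letters TATAAA. Capitals mark matches, and the sequences run 5′ to 3′ on the gene's strand.
Agt, chr8:124569707-124569956: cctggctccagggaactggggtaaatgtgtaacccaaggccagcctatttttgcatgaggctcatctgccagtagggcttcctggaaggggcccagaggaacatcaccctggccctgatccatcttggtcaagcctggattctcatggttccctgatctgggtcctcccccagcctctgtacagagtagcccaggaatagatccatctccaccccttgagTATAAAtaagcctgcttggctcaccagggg
Agtrap, chr4:148088065-148088314: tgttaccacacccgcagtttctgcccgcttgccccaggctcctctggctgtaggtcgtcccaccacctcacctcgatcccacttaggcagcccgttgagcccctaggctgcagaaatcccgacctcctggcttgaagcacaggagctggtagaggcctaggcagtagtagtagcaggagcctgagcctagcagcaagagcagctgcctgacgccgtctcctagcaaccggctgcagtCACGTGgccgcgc
Sgk1, the start farthest along the chromosome, chr10:21994416-21994665: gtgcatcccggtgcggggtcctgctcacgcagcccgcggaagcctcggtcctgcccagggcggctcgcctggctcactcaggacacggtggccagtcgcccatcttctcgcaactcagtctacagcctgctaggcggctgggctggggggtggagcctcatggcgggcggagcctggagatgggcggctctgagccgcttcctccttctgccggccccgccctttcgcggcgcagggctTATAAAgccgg
The Agt window held a TATA box 30 bases before the start and neither of the other motifs. The Agtrap window held the hypoxia motif as a CACGTG palindrome, in which the matches of both strands overlap, 13 and 12 bases before the start. The printed Sgk1 window held a TATA box 11 bases before its start. Over the 6 Sgk1 starts, 1 window held the hypoxia motif, 3 held the steroid half-site and 2 a TATA box. The hypoxia motif was found in 16.6% of 32851 promoter windows of this length, the steroid half-site in 16.1% and the TATA box in 12.4%, so a match in any of these windows is a description only.

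Each array was centred on the median of the tested probes, so 0 stands for the middle of that array. Before centring, array medians over all probes with a value ran from -0.07 to 0.09 in normoxia and from -0.03 to 0.03 in intermittent hypoxia. In constant hypoxia they ran from -1.17 to -0.15. There 81.8% to 88.8% of probes carried a value, against 41.0% to 67.9% in normoxia and 42.9% to 65.7% in intermittent hypoxia. That different footing and constant hypoxia itself cannot be told apart. Arrays of the same group correlated across probes at r = 0.16 to 0.63. Of the kidney markers Calb1, Lrp2 and Miox passed the filter (3 of 15 listed), and their mean ratio lay between -0.37 and 0.16 on all arrays; a ratio gives no level, so the labelled tissue could not be checked by abundance. Of other tissues, the liver list had Apoa1 tested (1 of 8 genes, -0.95 to 4.67), the adrenal list Hsd3b1 (1 of 6, -3.01 to 1.30), the fat list no gene of 6, and the erythroid list Hbb-b1 and Slc4a1 (2 of 7). The erythroid mean ratio was -2.07 to -0.06 in constant hypoxia, against -0.62 to 0.15 in normoxia and -1.20 to 0.31 in intermittent hypoxia. The highest Apoa1 ratio, 4.67, was on normoxia 1 week B, where Alb and Ttr of the liver list were at 5.3 and 3.12. Neither of these passed the filter. Alb ran from -0.91 to 5.3 over the 13 arrays with a value. The part of erythroid cells or of liver RNA in the ratios below was not tested. Less RNA per cell and fewer cells of a type cannot be told apart in whole kidneys.

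Agt had a value on 17 of the 18 arrays and none on constant hypoxia 4 weeks A. In normoxia, its centred log2 ratio was -1.0 and -0.18 after 1 week, -0.84 and 0.15 after 2 weeks, and -0.93 and -1.06 after 4 weeks. Its A arrays at each duration and 4 weeks B sat low, while 1 week B and 2 weeks B lay near or above the array median. In constant hypoxia, Agt was at -0.37 and -0.96 after 1 week, at -1.39 and -0.86 after 2 weeks and at -1.31 on the single 4-week array with a value. In intermittent hypoxia, it was at -0.45 and -0.99 after 1 week, at -0.70 and -1.48 after 2 weeks and at -0.26 and 0.12 after 4 weeks. All 5 constant hypoxia values were negative, a pattern shared by 12.9% of tested probes there, as were 5 of 6 in each of the other conditions, and the 3 conditions overlapped throughout.

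The mean Agt ratio was -0.64 ± 0.50 (SD, n = 6 arrays) in normoxia, -0.98 ± 0.41 (SD, n = 5) in constant hypoxia and -0.63 ± 0.57 (SD, n = 6) in intermittent hypoxia. Over all arrays, including the normoxia arrays used to choose the genes, 0.58% of the tested probes had a lower mean than Agt. Within single arrays its place ranged from the lowest 0.2% of probes to above 65.3% of them, with a median of 2.9%. Ordered by group mean, Agt was lowest after 4 and 2 weeks of constant hypoxia (-1.31 and -1.13) and 2 weeks of intermittent hypoxia (-1.09), and highest after 4 weeks of intermittent hypoxia (-0.07). Each group differed from the next in that order by less than the larger SD of the pair.

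Sgk1 had a value on every array. In normoxia, it was at -0.31 and -0.77 after 1 week, at -0.94 and -0.72 after 2 weeks and at -0.60 and -1.39 after 4 weeks, negative on 6 of 6 arrays. In constant hypoxia, the 1-week arrays stood apart from the later ones, at -0.27 and 0.18, against -1.04 and -1.19 after 2 weeks and -1.20 and -0.98 after 4 weeks. In log2 ratio, the 4 later arrays were all lower than both 1-week arrays. By place within the array this did not hold: 14.0% of tested probes lay below Sgk1 on 4 weeks A and 12.9% on 1 week A. The median absolute centred ratio of the tested probes was 0.319 on 4 weeks A and 0.166 on 1 week A. In intermittent hypoxia, Sgk1 was at -0.11 and -0.98 after 1 week, at -0.45 and -0.40 after 2 weeks and at -0.25 and -0.09 after 4 weeks. These were negative on 6 of 6 arrays, which 8.59% of tested probes also were, and they overlapped the values of both other conditions.

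The mean Sgk1 ratio was -0.79 ± 0.36 (SD, n = 6) in normoxia, -0.75 ± 0.57 (SD, n = 6) in constant hypoxia and -0.38 ± 0.33 (SD, n = 6) in intermittent hypoxia. Ordered by group mean, Sgk1 was lowest after 2 and 4 weeks of constant hypoxia (-1.12 and -1.09), followed by normoxia at 4, 2 and 1 weeks (-0.99, -0.83 and -0.54), intermittent hypoxia at 1, 2 and 4 weeks (-0.54, -0.43 and -0.17) and 1 week of constant hypoxia (-0.05). Neighbours in that order differed by less than the larger SD of the pair, except intermittent hypoxia at 2 and 4 weeks, which lay 0.26 apart with SDs of 0.04 and 0.11.

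Agtrap went the other way. It had no value on normoxia 1 week B, intermittent hypoxia 1 week B and intermittent hypoxia 2 weeks B, which left 15 arrays. In normoxia, it was at 1.58 on the 1-week array, at 0.04 and 0.76 after 2 weeks and at -0.41 and 0.59 after 4 weeks. In constant hypoxia, the 6 values were tightly grouped at 0.29 and 0.42 after 1 week, 0.49 and 0.30 after 2 weeks and 0.47 and 0.38 after 4 weeks. All 6 were positive, as were 12.0% of the tested probes on every constant hypoxia array. In intermittent hypoxia, it was at -0.41 on the 1-week array, at 1.20 on the 2-week array and at 0.41 and 0.64 after 4 weeks. The 1-week value lay below 0 and the other 3 above it.

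The mean Agtrap ratio was 0.51 ± 0.75 (SD, n = 5) in normoxia, 0.39 ± 0.08 (SD, n = 6) in constant hypoxia and 0.46 ± 0.67 (SD, n = 4) in intermittent hypoxia. The means lay close together while the spread did not, and the constant hypoxia values fell inside the range of both other conditions. Over all arrays, again including those of normoxia, 1.03% of tested probes had a higher mean than Agtrap, against 1.15% with a lower mean than Sgk1. Its group means ran from -0.41 (intermittent hypoxia, 1 week) to 1.58 (normoxia, 1 week), both from 1 array. Neighbours in the order lay within the larger SD of the pair, except that the single 2-week array of intermittent hypoxia lay 0.68 above the 4-week mean; the 2 highest groups had no SD.

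**Figure D1:**
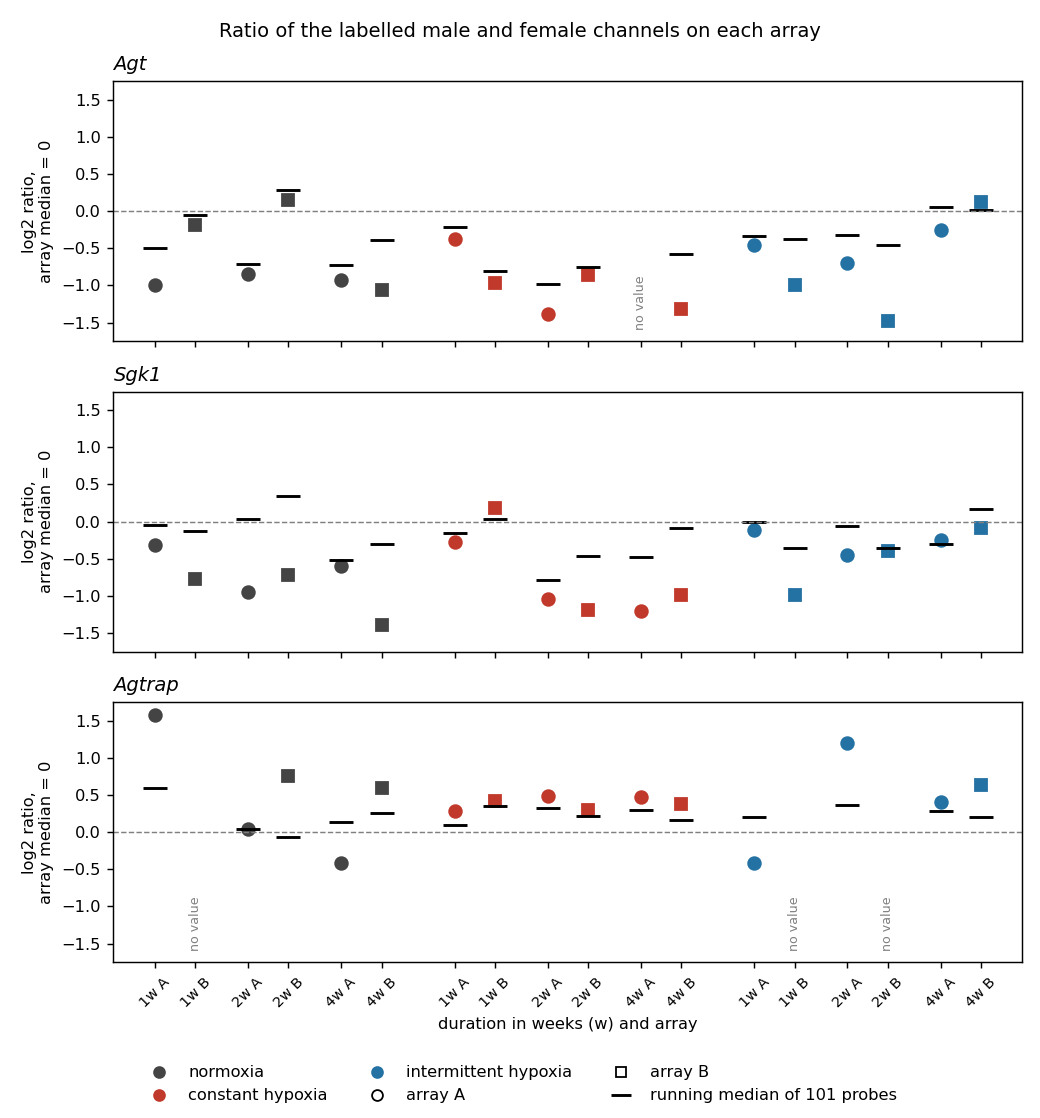
Median-centred log2 ratio of Agt, Sgk1 and Agtrap on each of the 18 arrays, by condition (colour), duration in weeks and array (circle A, square B). The short black bar is the running median around the gene in probe number order. It is taken over all probes with a value on that array, tested or not. Agt lay below 0 on 15 of 17 arrays and Sgk1 on 17 of 18, Agtrap lay above 0 on 13 of 15, and for Agt the black bars lay low on most of the same arrays. These counts include the normoxia arrays used to choose the genes. Of all tested probes, 8.81% were negative and 9.36% positive on all but at most 2 of their arrays.

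**Figure D2:**
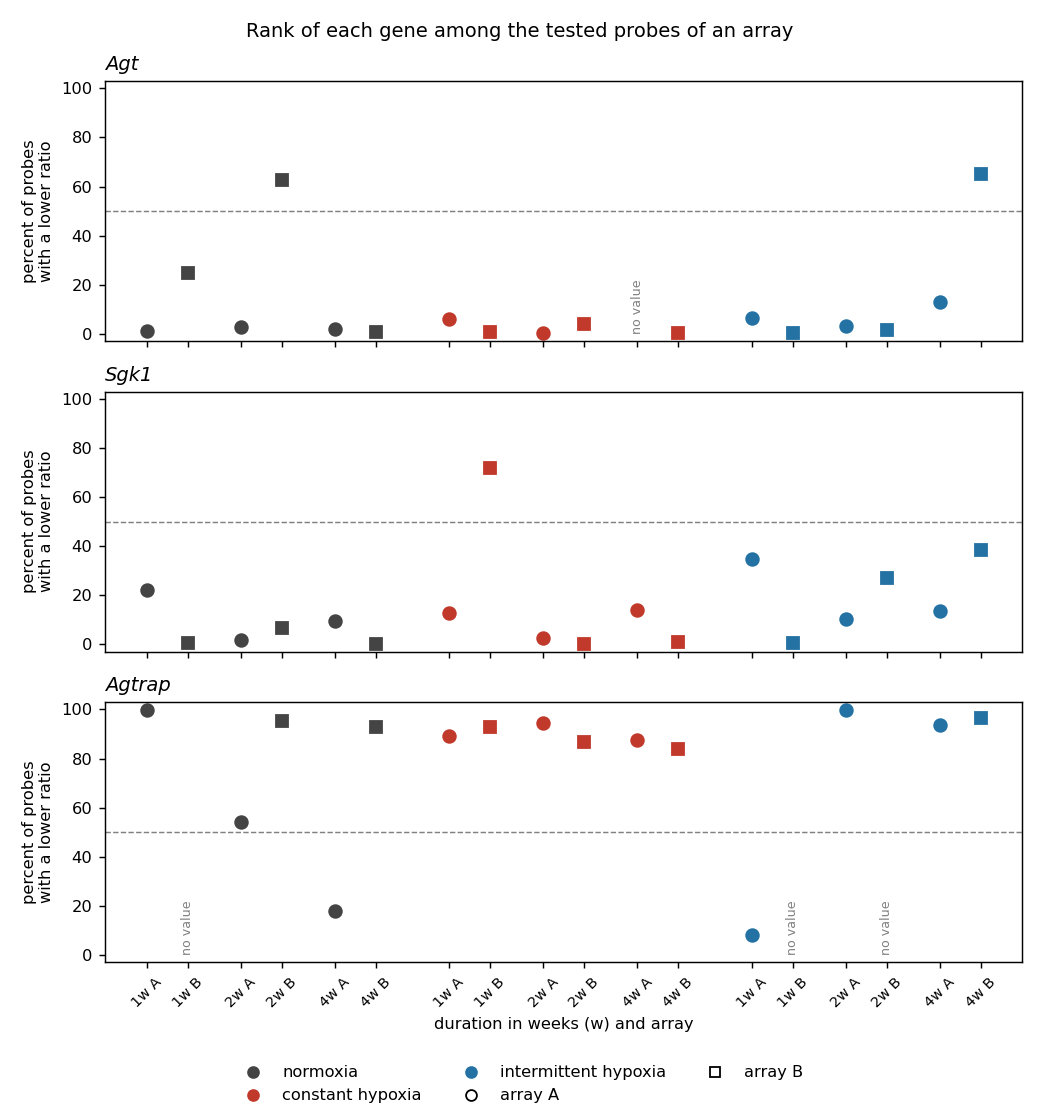
Percent of tested probes on the same array with a lower ratio than the gene, for each array; 50 is the array median (dashed). The median place was 2.9% for Agt, 10.1% for Sgk1 and 92.8% for Agtrap, and single arrays reached the other side for each gene. The medians include the normoxia arrays used to choose the genes.

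The hypoxia arrays did not serve to choose the genes. Whether their ratios differed from 0 was tested with limma on all tested probes (9 group means, Benjamini-Hochberg adjustment, threshold 0.05, two-sided). The estimates rest on the hypoxia arrays alone. The spread behind each SE and p-value, here and in the limma tests below, also came from the normoxia arrays unless stated. In constant hypoxia, the ratio of Sgk1 was below 0, at -0.75 (SE 0.13, 95% interval -1.03 to -0.48, adjusted p = 0.00703). Agt was also below 0, at -1.03 (SE 0.19, interval -1.44 to -0.63, adjusted p = 0.00751). Agtrap was at 0.39 (SE 0.14, interval 0.09 to 0.69, adjusted p = 0.065) and did not pass. The test called 18.7% of all tested probes, 13.9% in the negative direction and 4.88% in the positive one, so 2 of 3 genes called is to be read against that share. Leaving out constant hypoxia 1 week B ended both calls (adjusted p = 0.0523 for Sgk1 and 0.0591 for Agt) and took the number of probes called from 1222 to 8. Fitted on the constant hypoxia arrays alone, without the spread shared with the other groups, neither passed (adjusted p = 0.0578 for both) and no probe of 6518 did.

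In intermittent hypoxia, Agt was below 0, at -0.63 (SE 0.16, interval -0.98 to -0.28, adjusted p = 0.0412). Sgk1 was at -0.38 (SE 0.13, interval -0.65 to -0.10, adjusted p = 0.0882) and Agtrap at 0.44 (SE 0.18, interval 0.05 to 0.82, adjusted p = 0.147), and neither passed. The share of all tested probes called was 5.58%, made up of 1.38% negative and 4.2% positive. The Agt call sat close to the threshold: with the array letter as a replicate block its adjusted p was 0.0522, and it was lost in 11 of the 18 fits that left out 1 array.

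These ratios moved with the probe number. How probe numbers map to places on the array was not given in the sources used. Within 50 probe numbers of Agt, 28 other probes were tested, and in constant hypoxia all 28 were themselves called negative, with a median of -1.25. Of these, 25 had a lower ratio than Agt. For Sgk1, 45 neighbours had a median of -0.26, 9 of them (20.0%) were called negative and 1 had a lower ratio than Sgk1. For Agtrap, 64 neighbours had a median of 0.26 and 62 had a lower ratio than Agtrap, with 7 (10.9%) called positive.

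In intermittent hypoxia, the 28 neighbours of Agt had a median of -0.46, none was called and 8 were lower than Agt. The neighbours of Sgk1 had a median of -0.19, with 6 of 45 lower, and those of Agtrap a median of 0.34, with 21 of 64 higher. Agt thus sat in a stretch of low probes in both regimes, most so in constant hypoxia, whereas Sgk1 lay below nearly all of its neighbours there.

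**Figure D3:**
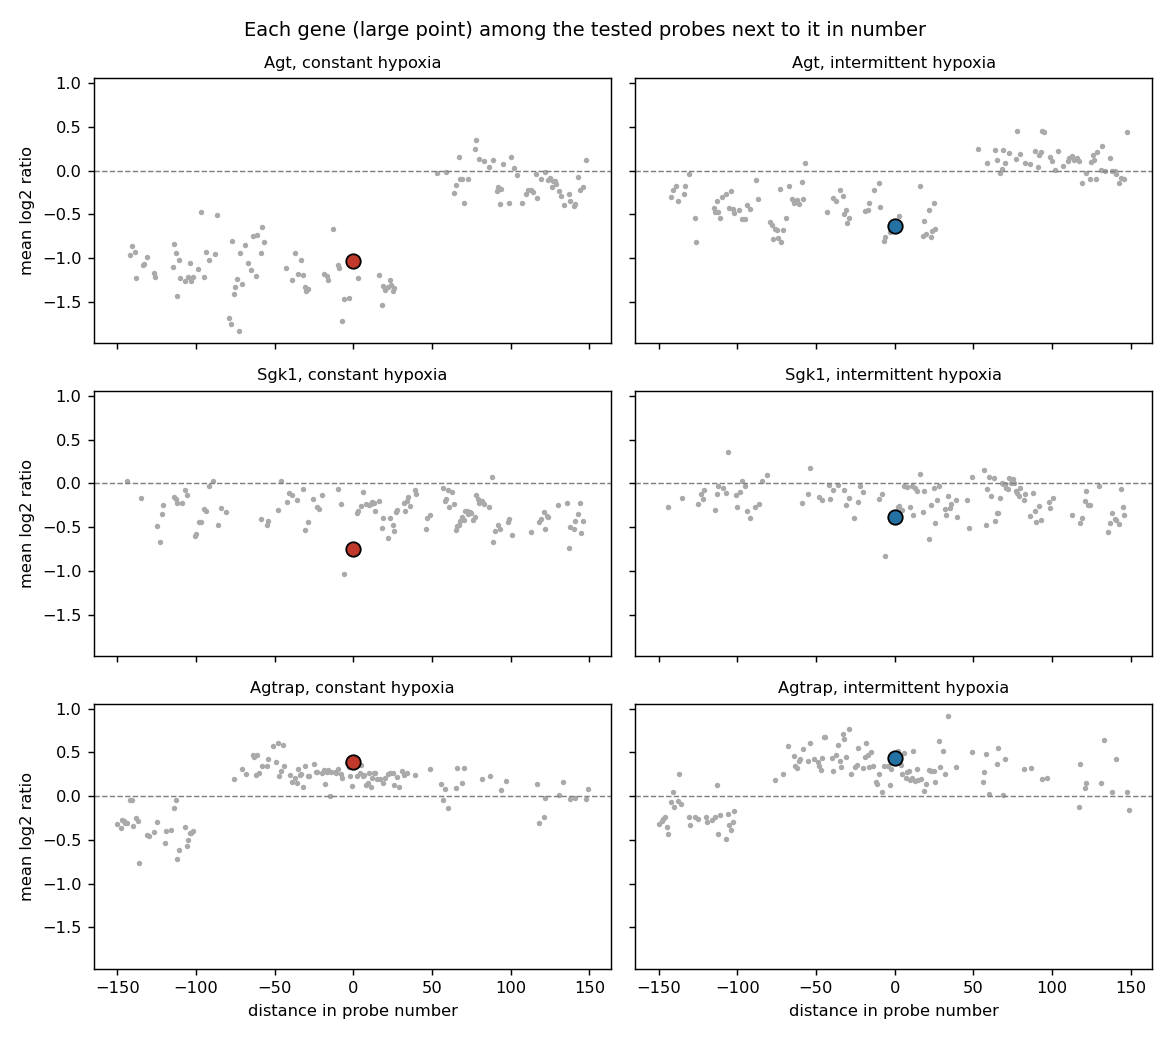
Mean log2 ratio of each gene (large point) and of the tested probes around it (grey), against distance in probe number, in constant and intermittent hypoxia. The Agt point lay among neighbours with a median of -1.25 in constant hypoxia, while the Sgk1 point lay below 44 of 45 neighbours.

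A running median over a wider stretch of probes was also subtracted from each array. It was taken over every probe with a value on that array, tested or not. For Agt it was -0.98 to -0.21 on the constant hypoxia arrays, less low than the median of -1.25 of the near neighbours, so what remains after subtraction does not place Agt below those. On this scale the constant hypoxia ratio of Sgk1 was -0.44 (adjusted p = 0.0786) and that of Agt -0.38 (adjusted p = 0.131), so both calls ended. The intermittent hypoxia ratio of Agt became -0.37 (adjusted p = 0.0556). As a description that includes the normoxia arrays used to choose the genes, Sgk1 lay below the running median on 15 of 18 arrays and Agt on 16 of 17. Agtrap lay above it on 13 of 15. In the same order, the counts were 5 of 6, 5 of 5 and 6 of 6 in constant hypoxia. In intermittent hypoxia they were 4 of 6, 5 of 6 and 3 of 4. The normoxia means on the same scale were -0.66 for Sgk1, -0.27 for Agt and 0.33 for Agtrap. Without centring, the constant hypoxia ratio of Agtrap was -0.39 (adjusted p = 0.0133), the opposite sign.

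**Figure D4:**
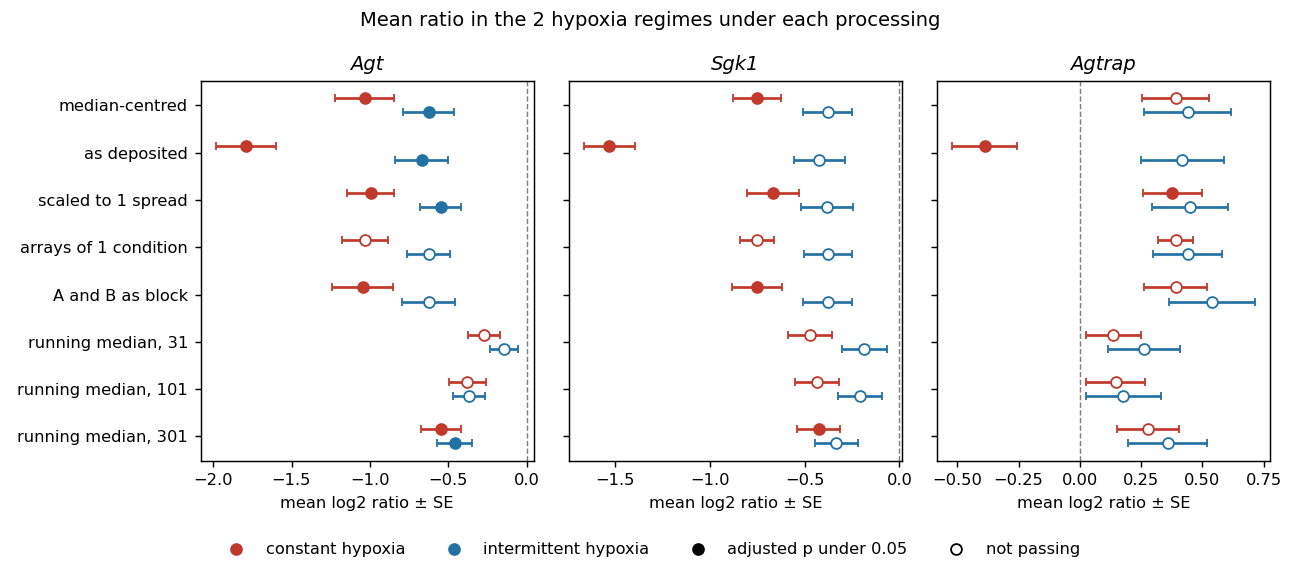
Mean log2 ratio (± SE) of each gene in constant and intermittent hypoxia under 8 ways of processing the arrays; filled points passed an adjusted p of 0.05. Agt and Sgk1 stayed below 0 throughout, their distance from 0 shrank with the running median removed, and Agtrap changed sign in constant hypoxia with the deposited values.

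The regimes were also compared directly, intermittent minus constant. The difference was 0.37 for Sgk1 (SE 0.18, interval -0.02 to 0.76, adjusted p = 0.438). It was 0.41 for Agt (SE 0.25, interval -0.13 to 0.94, adjusted p = 0.51). For Agtrap it was 0.05 (SE 0.22, interval -0.44 to 0.54, adjusted p = 0.947). None passed, among 0.046% of probes called, and the intervals leave room for differences of either sign. With the values as deposited, all 3 differences passed (1.11, 1.12 and 0.81 with adjusted p = 0.000296, 0.00141 and 0.00439), while the median probe also differed by 0.80 between the regimes. Set beside normoxia, with no test, the means that weight the 3 durations equally were -0.64 in normoxia, -1.03 in constant and -0.63 in intermittent hypoxia for Agt, and 0.69, 0.39 and 0.44 for Agtrap, which differ from the means over arrays above because of missing values. On these means the conditions differed from normoxia by -0.39 for Agt, 0.04 for Sgk1 and -0.30 for Agtrap in constant hypoxia, and by 0.02, 0.41 and -0.25 in intermittent hypoxia.

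Of the differences between 4 weeks and 1 week in the hypoxia regimes, that of Sgk1 in constant hypoxia was the widest of the 3 genes. In constant hypoxia, its ratio was -0.05 at 1 week and -1.09 at 4 weeks, a difference of -1.05 (SE 0.32, interval -1.72 to -0.37, unadjusted p = 0.00479, adjusted p = 0.416). In intermittent hypoxia, it was 0.37 higher at 4 weeks than at 1 week (SE 0.32, adjusted p = 1.0). Neither passed, and no probe of 6518 passed limma in either time comparison (666 and 177 had an unadjusted p under 0.05). Agt was 0.65 lower at 4 weeks in constant hypoxia, where a single 4-week array has a value, and 0.65 higher in intermittent hypoxia. Agtrap was 0.07 higher in constant and 0.93 higher in intermittent hypoxia, the last resting on a single 1-week array.

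Whether the time change differed between the regimes was tested after these values were seen. The difference of the changes, intermittent minus constant, was 1.42 for Sgk1 (SE 0.45, unadjusted p = 0.00639, adjusted p = 0.507), 1.30 for Agt (SE 0.63, adjusted p = 0.521) and 0.86 for Agtrap (SE 0.53, adjusted p = 0.6). No probe passed this limma test, and 638 had an unadjusted p under 0.05.

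Among the genes of the same pathways, the renin-angiotensin list had 8 of 26 genes on the array and 3 tested: Agt, Agtrap and Agtr2, the type 2 angiotensin receptor, which was at 0.08 ± 0.24 (SD) in constant and -0.13 ± 0.35 (SD) in intermittent hypoxia and passed in neither. Renin, the converting enzyme and the type 1 receptor were not among the tested probes. The aldosterone and sodium transport list had 11 of 44 genes tested with 13 probes. In constant hypoxia 3 of the 13 were called negative, against 13.9% of all tested probes: Sgk1, Fxyd4, a regulatory subunit of the sodium pump in the collecting duct (-0.38, SE 0.12, adjusted p = 0.0371), and Nr3c1, the glucocorticoid receptor (-0.75, SE 0.24, adjusted p = 0.0421). No probe of the list was called positive although 5 lay above 0, and the list median was -0.10 against -0.01 for all probes. Without Sgk1, 2 of the 12 other probes were called, and their median was -0.08. With the running median removed, Fxyd4 was at -0.25 and Nr3c1 at 0.01, and neither passed.

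The SGK1 kinase pathway list had 11 of 21 genes tested with 14 probes, and 3 of the 14 were called negative in constant hypoxia, against the same 13.9%, with 6 above 0: Sgk1, 1 probe of Gsk3b, a kinase that SGK1 can phosphorylate (-0.75, SE 0.20, adjusted p = 0.0222), and 1 probe of Pik3ca, the catalytic subunit of phosphoinositide 3-kinase (-0.44, SE 0.13, adjusted p = 0.032). Other probes of the same genes did not follow, at 0.20 for Gsk3b and at -0.10 and -0.19 for Pik3ca. The list median was -0.06. Without Sgk1, 2 of the 13 other probes were called, and their median was -0.02. The glucocorticoid-responsive list had 5 of 14 genes tested with 6 probes. Here 1 probe of Errfi1, an inhibitor of the epidermal growth factor receptor, was called positive in constant hypoxia (0.46, SE 0.12, adjusted p = 0.0188). So was Klf9, a transcription factor (0.42, SE 0.12, adjusted p = 0.0262), against 4.88% of all tested probes, while Sgk1 was called negative. In intermittent hypoxia the same Errfi1 probe was the only probe of the 3 lists other than renin-angiotensin to pass (0.54, SE 0.13, adjusted p = 0.0346). The other Errfi1 probe, at 0.41 in constant and 0.50 in intermittent hypoxia, passed in neither. No list probe passed between the regimes or over time. With the running median removed, none of these list calls passed.

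The genes were also set against each other over arrays. Over all arrays, as a description that includes normoxia, r was 0.36 for Agt with Sgk1 (n = 17), 0.02 for Agt with Agtrap (n = 14) and 0.03 for Agtrap with Sgk1 (n = 15). Without the normoxia arrays, 6 relations were tested (two-sided permutation, 100000 resamples with 10 or more arrays and exact below, adjusted over the 6), a choice made after the values were seen. Agt and Sgk1 had r = 0.54 over 11 hypoxia arrays (permutation p = 0.0867, rho = 0.55 with p = 0.0872, adjusted p = 0.276), and r = 0.62 without the 2 arrays farthest from the Agt median. Within intermittent hypoxia their r was 0.60 (exact permutation p = 0.217, n = 6), and constant hypoxia had 5 shared arrays. Agt and Agtrap had r = -0.05 (exact permutation p = 0.927, rho = -0.05 with p = 0.912, n = 9) and r = -0.20 without the 2 farthest arrays. Agtrap and Sgk1 had r = -0.11 (permutation p = 0.745, rho = -0.04 with p = 0.919, n = 10), and r = 0.21 without the 2 farthest arrays.

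Each gene was also set against Eif2s3y on the hypoxia arrays. For Sgk1, r was -0.51 (permutation p = 0.092, rho = -0.49 with p = 0.112, n = 12, adjusted p = 0.276), and -0.54 without the 2 farthest arrays. For Agt, r was -0.43 (permutation p = 0.186, rho = -0.46 with p = 0.154, n = 11, adjusted p = 0.371), and -0.61 without the 2 farthest arrays. For Agtrap, r was 0.31 (permutation p = 0.382, rho = 0.27 with p = 0.45, n = 10, adjusted p = 0.573), and it turned to -0.23 without the 2 farthest arrays, so it rests on those. None passed. Within constant hypoxia alone, Agtrap and Eif2s3y gave r = 0.92 over 6 arrays (exact permutation p = 0.0139, rho = 0.89 with p = 0.0333, r = 0.85 without the 2 farthest arrays, adjusted p = 0.0417 over the 3 relations with 6 arrays there). The 6 Agtrap values behind it span 0.29 to 0.49. The adjustment did not span the other sets of arrays examined, and the permutation did not keep arrays of the same duration together. For Sgk1 and Eif2s3y the r was -0.16 in constant and -0.68 in intermittent hypoxia (exact permutation p = 0.743 and 0.0986), and 0.37 and -0.41 without the 2 farthest arrays. For Agt it was -0.12 in intermittent hypoxia (exact permutation p = 0.826), and -0.30 without them. In normoxia, as a description, r with Eif2s3y was -0.06 for Agt and -0.23 for Sgk1 over 6 arrays, and -0.98 and 0.85 without the 2 farthest.

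The probes most like each gene were listed by Pearson r over at least 15 shared arrays, as a description. For Agt these were Tmc8 (r = 0.93), Vhl (r = 0.91) and Khdrbs1 (r = 0.91), with Tmc8 3 probe numbers away. For Agtrap they were Mybbp1a (r = 0.86), Adamts12 (r = 0.80) and Ap3b1 (r = 0.76). For Sgk1 they were Sdcbp (r = 0.79), Rgs2 (r = 0.75) and Actn2 (r = 0.74). With the running median removed these fell to 0.78, 0.68 and 0.48 for Agt, 0.78, 0.67 and 0.69 for Agtrap, and 0.62, 0.46 and 0.41 for Sgk1. The points share arrays and their trends along the probe numbers.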

How the data were processed

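The values used were the log2 ratios the authors deposited in a single table. The base was inferred: exponentiated with base 2, 23.0% to 80.0% of 500 values sampled on an array were quotients of integers (denominator at most 600, tolerance 3e-09), against at most 1.4% with base e or 10. Per the labels' protocols, RNA was extracted in Trizol and labelled by direct dye incorporation. How background, spot quality and dye bias were handled is not given in the sources used, nor the direction of the ratio, and spot intensities were not used, so the signal behind a value is unknown.

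Gene symbols came from the platform annotation (9604 of 16128 probes with 1 symbol, 213 with several, 6311 with none). Arrays were centred on the median of the 6518 tested probes and fitted with limma 3.58.1 in R 4.3.3, with 9 group means and Benjamini-Hochberg adjustment over all tested probes. The fit was tested on simulated data. Arrays of a group held different animals per the labels, and p-values measure the spread between arrays. The letters A and B did not pair arrays: over 36 pairs of groups, deviations correlated at a median r of 0.01 (-0.37 to 0.45). Alternatives were the centring, filters, scaling, the trend along probe numbers, averaging by gene, the block, the arrays fitted, each array left out and the 2 arrays with disagreeing labels left out. Genes named beside the 3 regulators were every list probe that passed, and the 3 single-symbol probes of highest correlation with each. The genes, lists and tests were chosen with earlier results of these data known.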

Additional observations from a re-analysis of the deposited data

Results flagged for a closer look

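The 4-week minus 1-week difference of Agt had opposite signs in the 2 regimes, -0.65 in constant hypoxia and 0.65 in intermittent hypoxia, with no overlap between the 1-week and 4-week arrays in either. The 4-week constant hypoxia value is from 1 array. The difference between the changes was 1.30 (SE 0.63), and it did not pass limma's test over all probes (adjusted p = 0.521).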

How the results depend on the processing

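Of 448 alternative values with a test for the 3 genes, 410 kept their direction and their side of the threshold, 23 lost a call, 7 gained one and 8 turned sign. Most of these could not lose a call, since most results had none, and leaving out an array outside a comparison leaves its estimate unchanged. The counts include correlations over all arrays, which hold the normoxia arrays used to choose the genes and serve here as descriptions. Of the gained calls, 1 was such a correlation, Agt with Sgk1 as deposited. Among the sign turns, 2 for Agt with Agtrap and 2 for Agtrap with Sgk1 were judged against all-array correlations. The call of Agt was kept in 24 of 28 alternatives in constant hypoxia and in 14 of 29 in intermittent hypoxia. That of Sgk1 in constant hypoxia was kept in 26 of 30. The alternatives of the normoxia means have no test and moved by less than the SD between arrays. In constant hypoxia, fitting only those arrays gave -1.03 for Agt and -0.75 for Sgk1 (adjusted p = 0.0578 for both), and removing the running median gave -0.38 and -0.44 (adjusted p = 0.131 and 0.0786). A narrower window of 31 probes gave -0.28 and -0.47 (adjusted p = 0.248 and 0.0856), and a wider one kept both calls; both windows were chosen after seeing the data. Leaving out 1 array gave -1.13 to -0.94 for Agt, -0.83 to -0.68 for Sgk1 and 0.36 to 0.42 for Agtrap; Agtrap passed without either normoxia 4 weeks array (adjusted p = 0.0401) and with arrays scaled to 1 spread (0.38, adjusted p = 0.0381), and was -0.39 as deposited. The causes were not tested.

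In intermittent hypoxia, Agt was -0.37 with the running median removed, -0.14 with the window of 31 (adjusted p = 0.436), -0.63 with the replicate block (adjusted p = 0.0522) and -0.63 fitting only those arrays (adjusted p = 0.0538). Leaving out 1 array gave -0.76 to -0.50 and ended the call for normoxia 4 weeks A and B, constant hypoxia 1 and 2 weeks A and B, intermittent hypoxia 1 and 4 weeks A and B, and intermittent hypoxia 2 weeks B. The block changed no other call of the 3 genes.

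As deposited, intermittent minus constant hypoxia was 1.12 for Agt, 0.81 for Agtrap and 1.11 for Sgk1, and Agt with Sgk1 gave r = 0.64 over all arrays. With the running median removed, Agt with Agtrap gave r = -0.21 and Agtrap with Sgk1 r = -0.25, and on the hypoxia arrays alone these were -0.046 and -0.11. The change of Agtrap over constant hypoxia was -0.10 with scaled arrays and -0.054 with the window of 31. That of Sgk1 over intermittent hypoxia ran from -0.064, without intermittent hypoxia 1 week B, to 0.81.

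The number of probes called in constant hypoxia (1222) was 649 over probes with a value on all 18 arrays, 0 fitting only those arrays, 337, 60 and 6 with the wide, main and narrow window, 6433 as deposited and 8 to 607 in the 5 leave-outs that moved it most. In intermittent hypoxia (364) it was 97, 129, 909, 241 and 135 under the first 5 of these, 624 scaled, 1330 without the 2 arrays with disagreeing labels and 43 to 979 leaving out 1 array; its split was 274 positive to 90 negative, against 152 to 107 as deposited and 185 to 141 centred over all probes. Between the regimes (3) it was 0 to 5, except 6041 as deposited and 780 without constant hypoxia 4 weeks B, and over time (0) at most 2, except 864 in constant hypoxia without that array. Probes with a value on all 18 arrays include only Sgk1, and leaving out the only array of a group with an Agt or Agtrap value gave no estimate that uses that group. Missing spots and 2 arrays per group limit the precision.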
